A study of Mus musculus with 8 samples.

Results

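The expression of 9 genes of B cells, plasma cells and IgA transport was compared between duodenum that lacked IκBα in its epithelium and duodenum of wild-type siblings. The genes were taken by symbol from the array's probe-to-gene table, and all 9 were found, each with 1 probe set, among 19505 named genes. They comprise 5 surface genes of mature, follicular B cells (Ms4a1, Cd79a, Cd79b, Cd22 and Tnfrsf13c), the coactivator gene Pou2af1, which B cells and plasma cells both use, the plasma cell receptor gene Tnfrsf17, the survival factor gene Tnfsf13b and the epithelial receptor gene Pigr.

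The study placed the RNA of 8 untreated mice on Clariom S arrays, which give 1 log2 expression value per probe set. In 4 knockout mice (KO) a floxed Nfkbia gene, which encodes the NF-κB inhibitor IκBα, was deleted by Cre under the villin promoter, which is active in intestinal epithelium. Each knockout had a wild-type (WT) littermate of the same age as its control, which gave 4 sibling pairs aged 8, 11, 8 and 9 weeks. Whether the wild types carried Cre or floxed alleles was not stated in the texts at hand. By label, both mice of pair 1 were male and both of pair 2 female, while pair 3 set a male knockout against a female wild type and pair 4 the reverse. The RNA came from whole small intestine by label and from duodenum by the series design, so lymphoid and stromal cells, in which villin-Cre is not expected to act, contributed to it. In such bulk RNA, fewer cells of a type and less RNA per cell cannot be told apart.

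The gut mucosa is the main site of IgA production. Naive B cells meet antigen in Peyer's patches and isolated follicles, switch to IgA and return to the lamina propria as plasma cells, which secrete dimeric IgA joined by the J chain. Epithelial cells take up this dimer with the polymeric immunoglobulin receptor, the product of Pigr, and release it into the lumen. BAFF, the product of Tnfsf13b, keeps B cells alive through the receptor encoded by Tnfrsf13c, and Tnfrsf17 encodes BCMA, the receptor on which long-lived plasma cells rely.

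The RefSeq promoter table (GRCm38.p6) held windows of 300 bases, from 250 bases before the gene's start to 50 after it, for 7 of the 9 genes. Those of the 3 genes that rose and of Pigr are shown here on the strand of the gene. The windows were searched on both strands for CACGTG (an E-box), GGGANTTTC (the greater part of a classical NF-κB site), ATGCAAAT (the octamer, at which the Pou2af1 product acts with its partners), GAAANNGAA (an interferon response core) and GAGGAAGT (a PU.1 core). Capitals mark matches, and the windows of Pou2af1, Tnfrsf13c and Cd22 have none.

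Pou2af1 (chr9:51213440-51213739, + strand): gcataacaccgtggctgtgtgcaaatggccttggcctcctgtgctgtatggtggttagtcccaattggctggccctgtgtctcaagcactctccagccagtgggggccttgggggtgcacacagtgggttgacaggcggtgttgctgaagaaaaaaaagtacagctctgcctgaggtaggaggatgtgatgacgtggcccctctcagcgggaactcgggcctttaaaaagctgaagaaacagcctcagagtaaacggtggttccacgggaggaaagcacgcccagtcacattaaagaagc
Tnfrsf13c (chr15:82224331-82224630, - strand): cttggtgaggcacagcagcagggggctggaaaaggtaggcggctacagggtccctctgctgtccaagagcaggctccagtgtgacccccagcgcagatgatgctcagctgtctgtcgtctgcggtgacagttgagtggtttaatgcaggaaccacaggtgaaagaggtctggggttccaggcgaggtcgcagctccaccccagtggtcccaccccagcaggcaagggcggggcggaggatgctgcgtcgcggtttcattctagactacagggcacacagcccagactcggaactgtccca
Cd22 (chr7:30878979-30879278, - strand): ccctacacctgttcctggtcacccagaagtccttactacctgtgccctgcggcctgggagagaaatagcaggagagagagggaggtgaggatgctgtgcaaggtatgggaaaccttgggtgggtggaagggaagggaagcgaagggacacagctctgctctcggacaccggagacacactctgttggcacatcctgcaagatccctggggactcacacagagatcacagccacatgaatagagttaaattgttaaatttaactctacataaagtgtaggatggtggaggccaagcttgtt
Pigr (chr1:130826434-130826733, + strand): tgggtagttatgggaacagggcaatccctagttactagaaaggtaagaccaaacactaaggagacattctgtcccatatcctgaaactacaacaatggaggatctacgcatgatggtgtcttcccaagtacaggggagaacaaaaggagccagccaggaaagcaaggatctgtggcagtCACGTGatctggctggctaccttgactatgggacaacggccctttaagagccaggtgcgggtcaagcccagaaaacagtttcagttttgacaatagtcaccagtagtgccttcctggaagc

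Pigr alone of the 7 held CACGTG, at bases 180 to 185 of its window, and 7.15% of all 32851 windows in the table hold it. GAAANNGAA was found in a window of Tnfrsf17 (bases 151 to 159) and of Tnfsf13b (bases 235 to 243) and in 8.56% of all. GGGANTTTC, ATGCAAAT and GAGGAAGT were found in 0 of the 7 genes and in 1.11%, 1.74% and 3.20% of all windows. No found site overlapped another. A match is a description of letters and not a binding site, and the lack of one says only that these letters are not in the window. The motifs were chosen after the differences were known.

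Before the genes are described, the samples were checked. Nfkbia was lower in the knockout of all 4 pairs, with log2 differences of -2.93, -3.26, -1.29 and -3.13. Averages over the siblings of a pair hardly varied between pairs (median SD 0.0175 over probe sets), so a value is best read against its sibling, and a low wild type next to a high knockout is partly built into the table. Where every knockout exceeds its sibling, groups that do not overlap largely follow from the within-pair differences. Such a gap is given below as a description and not as a further result. Adipose markers were higher in the knockouts of pairs 1 and 2 (medians of 8 genes 3.12 and 2.77 log2, against 0.27 and 0.00 in pairs 3 and 4), and acinar pancreas markers were lower in those of pairs 3 and 4 (medians of 8 genes -3.82 and -3.32, against -0.41 and 0.27 in pairs 1 and 2). The 13 epithelial markers, read as a check of the labelled tissue, averaged 11.79 to 11.88 in the wild types and 11.83 to 11.88 in the knockouts. The 9 genes all averaged above 5.65, the level below which 95% of 1091 probe sets of olfactory receptors lay, but Cd22 and Ms4a1 lay near it, where differences are understated.

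Of the 9 genes 3 rose in the knockouts and 0 fell at an adjusted p of 0.05 (limma with the sibling pair as a block, adjusted over 22206 probe sets). Over all probe sets 3.16% were called higher and 2.70% lower. As the 9 genes were chosen with earlier results of these data known, this comparison is no test of the set. The genes that rose were Pou2af1, Tnfrsf13c and Cd22. The median log2 difference of the 9 genes was 0.40, against -0.02 over all probe sets and 0.20 over 9 housekeeping genes. The median of the 9 members was 0.81 on pairs 1 and 2 alone and 0.11 on pairs 3 and 4 alone. It was 0.10 with the adipose mean in the fit, 0.76 with the acinar mean and 0.22 after centring on housekeeping genes. Adipose markers differed mainly in pairs 1 and 2, so the fit with their mean largely re-estimates pairs 3 and 4. The fit with the acinar mean likewise re-estimates pairs 1 and 2. Values from these covariates are thus not separate results. In 4 of the 9 genes, the 3 called and Pigr, every knockout was higher than its sibling, which held for 16.5% of all probe sets.

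**Figure D1:**
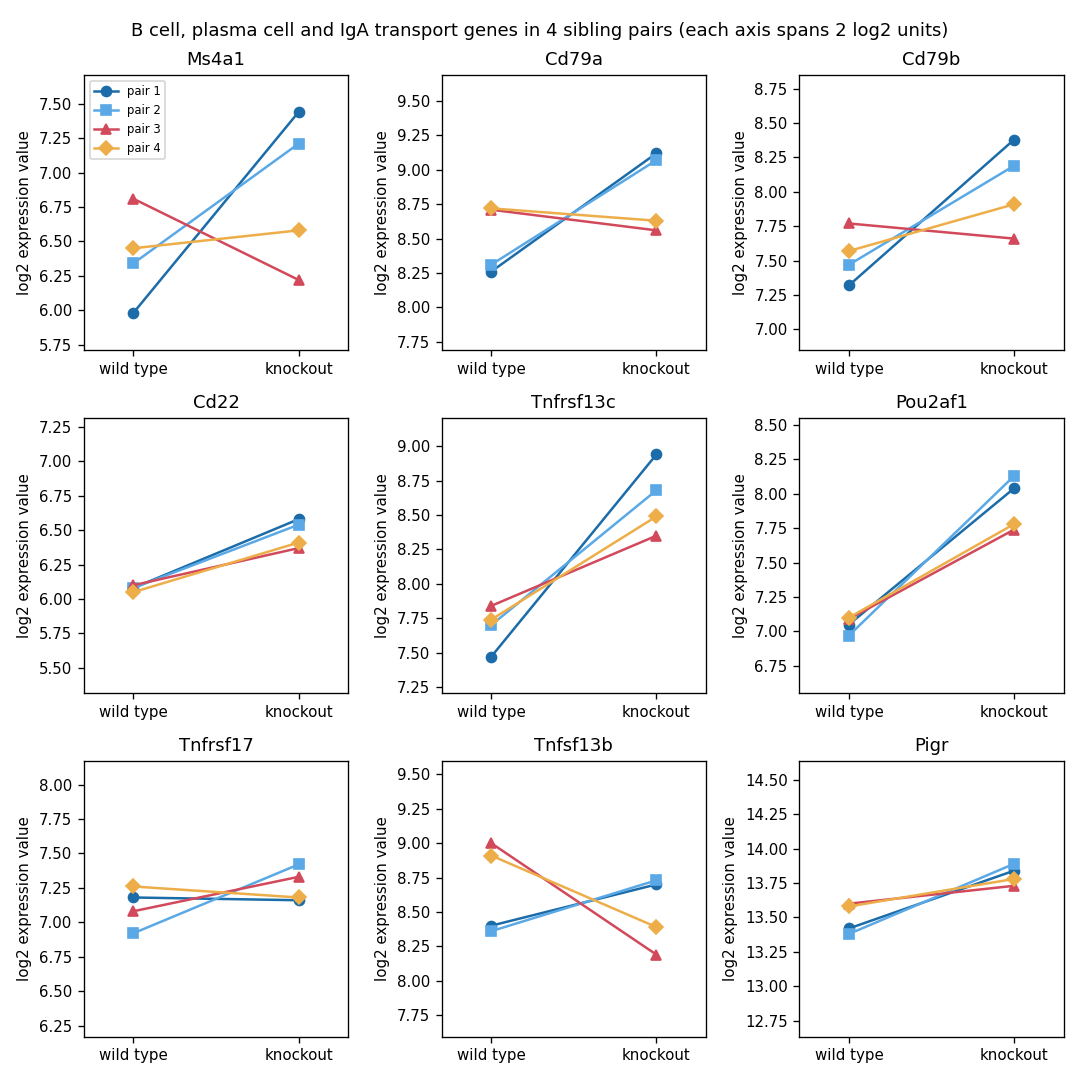
Log2 expression values of the 9 genes in each wild-type and knockout mouse, with a line joining the siblings of a pair and every axis spanning 2 log2 units. All 4 lines rise for Cd22, Tnfrsf13c, Pou2af1 and Pigr, while pairs 3 and 4 fall for Tnfsf13b.

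Pou2af1 encodes OCA-B, the coactivator that binds octamer factors at immunoglobulin and other B cell promoters and is needed for germinal centres. Its log2 values were 7.05, 6.97, 7.09 and 7.10 in the wild types of pairs 1 to 4 and 8.04, 8.13, 7.74 and 7.78 in their knockout siblings. The knockouts of pairs 1 and 2 were highest, and the lowest knockout, that of pair 3, was above the highest wild type. The within-pair differences of 0.99, 1.16, 0.65 and 0.68 gave a mean of 0.87 ± 0.247 (SD, n = 4 pairs), a 1.83-fold rise (95% confidence interval 0.62 to 1.12, limma adjusted p = 0.0138). Without pair 1 or pair 2 the call was lost at nearly the same size (0.83 with limma adjusted p = 0.0567, and 0.77 with 0.0534). On pairs 3 and 4 alone, Pou2af1 differed by 0.66 (limma adjusted p = 0.163). In these pairs the adipose markers hardly differed, but the acinar markers did and the siblings were of opposite sex. With the mean of the adipose markers in the fit Pou2af1 rose by 0.66 (limma adjusted p = 0.0341). With the acinar mean, a setting added after the data were seen, it rose by 1.06 (0.00766). The adipose fit largely re-estimates pairs 3 and 4, with the same 0.66, so its smaller p is not separate support. The acinar fit likewise re-estimates pairs 1 and 2, which alone gave 1.07.

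Tnfrsf13c, the receptor that transmits BAFF survival signals in mature B cells, had the largest difference of the 9. The wild types of pairs 1 to 4 had log2 values of 7.47, 7.70, 7.84 and 7.74 and the knockouts 8.94, 8.68, 8.35 and 8.49. The groups did not overlap, and pair 1 held both the lowest wild type and the highest knockout. The differences were 1.47, 0.98, 0.51 and 0.75, with a mean of 0.93 ± 0.409 (SD, n = 4 pairs), or 1.90-fold (95% confidence interval 0.56 to 1.29, limma adjusted p = 0.0267). Limma's adjusted p was 0.0567, 0.0991 and 0.0764 without pair 1, 2 or 4, with differences of 0.75, 0.91 and 0.99. Pairs 3 and 4 alone gave 0.63 (limma adjusted p = 0.184), the adipose covariate 0.61 (0.0846) and the acinar covariate 1.17 (0.0245).

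Cd22, the sialic acid-binding inhibitory coreceptor that dampens signals of the B cell receptor, showed a smaller and more even rise. Its values were 6.08, 6.08, 6.10 and 6.05 in the wild types and 6.58, 6.54, 6.37 and 6.41 in the knockouts of pairs 1 to 4. The wild types lay within 0.05 log2 units of each other, and all 4 knockouts stood above them. With nearly equal pair averages, both largely follow from even within-pair differences. The differences of 0.50, 0.46, 0.27 and 0.36 averaged 0.40 ± 0.103 (SD, n = 4 pairs), a 1.32-fold rise (95% confidence interval 0.22 to 0.58, limma adjusted p = 0.0355). This call was lost on leaving out any 1 pair (limma adjusted p from 0.0692 to 0.131, with differences from 0.36 to 0.44) and on centring the arrays on housekeeping genes (0.22, adjusted p = 0.067), and without pairs 1 and 2 the difference was 0.32 (adjusted p = 0.237).

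The other surface genes of mature B cells split by pair. Ms4a1, which encodes the B cell antigen CD20, had values of 5.98, 6.34, 6.81 and 6.45 in the wild types of pairs 1 to 4 and of 7.44, 7.21, 6.22 and 6.58 in the knockouts. It was thus higher in the knockouts of pairs 1 and 2 (by 1.46 and 0.87), little different in pair 4 (0.13) and lower in pair 3 (-0.59), and the groups overlapped. The mean of 0.47 ± 0.891 (SD, n = 4 pairs) did not pass the test (95% confidence interval -0.27 to 1.20, limma adjusted p = 0.368). Pairs 3 and 4 alone gave -0.23.

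Cd79a and Cd79b encode the paired signalling chains Igα and Igβ of the B cell receptor. Cd79a had 8.26, 8.31, 8.71 and 8.72 in the wild types and 9.12, 9.07, 8.56 and 8.63 in the knockouts. Cd79b had 7.32, 7.47, 7.77 and 7.57 in the wild types and 8.38, 8.19, 7.66 and 7.91 in the knockouts. For both genes the knockouts of pairs 1 and 2 were the highest of all 8 mice, whereas the knockout lay below its sibling in pair 3 for both and in pair 4 for Cd79a. The mean differences were 0.34 ± 0.539 for Cd79a (limma adjusted p = 0.297) and 0.50 ± 0.503 for Cd79b (0.140), each over 4 pairs. With the acinar mean as a covariate, a setting added after the data were seen, both passed the test. The difference was 0.76 for Cd79a (limma adjusted p = 0.0291) and 0.84 for Cd79b (0.0474). This fit largely re-estimates pairs 1 and 2, which alone gave 0.81 and 0.89. With the adipose mean Cd79a was at -0.14 (limma adjusted p = 0.429) and Cd79b at 0.10 (0.744).

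The mean difference of the 5 surface genes was 1.07, 0.76, -0.01 and 0.30 in pairs 1 to 4, while that of Pou2af1 was 0.99, 1.16, 0.65 and 0.68. The surface genes thus differed most in pairs 1 and 2. These are the pairs whose adipose markers differed, whose acinar markers hardly did and whose siblings were of the same sex. Pair 3, with the smallest mean of the surface genes, also had the smallest fall of Nfkbia (-1.29). With 4 pairs these cannot be told apart. Whether Pou2af1, Tnfrsf13c and Cd22 differ from Ms4a1, Cd79a and Cd79b in their response was not tested either. Exact sign flips within pairs gave p = 0.125 for Pou2af1, Tnfrsf13c, Cd22 and Pigr alike, the smallest that 16 flips of 4 pairs allow.

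**Figure D2:**
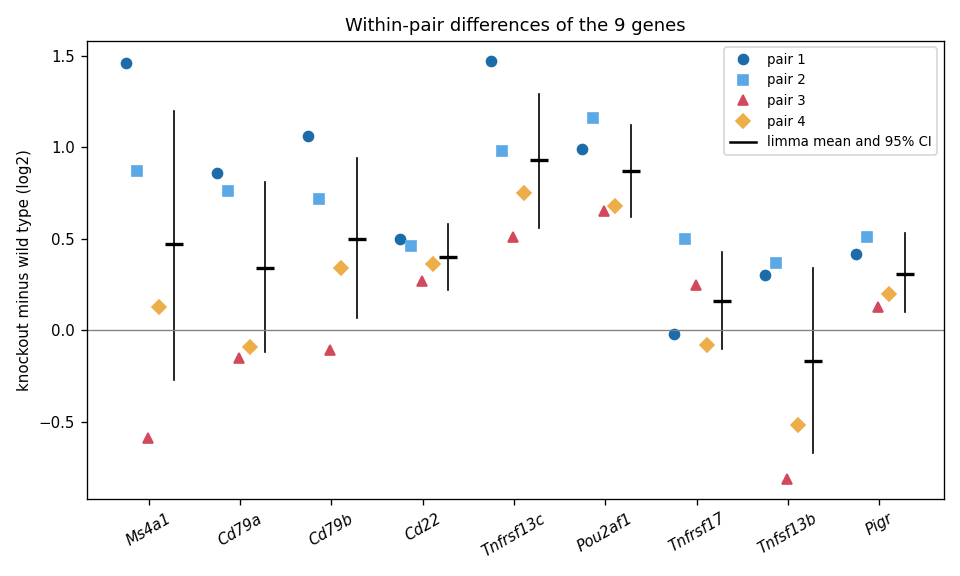
Difference between knockout and wild type (log2) in each sibling pair for the 9 genes, with the limma mean and 95% confidence interval in black. The intervals of Cd22, Tnfrsf13c, Pou2af1, Cd79b and Pigr lie above 0, and only the first 3 of these passed the test after adjustment over all probe sets.

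Tnfrsf17, the BCMA gene that marks plasma cells, had values of 7.18, 6.92, 7.08 and 7.26 in the wild types and 7.16, 7.42, 7.33 and 7.18 in the knockouts of pairs 1 to 4. The groups overlapped, and the knockout was higher in pairs 2 and 3 alone. The difference of 0.16 ± 0.267 (SD, n = 4 pairs) did not pass the test (limma adjusted p = 0.387). Its 95% confidence interval ran from -0.10 to 0.43, and its sign turned to -0.01 when arrays were centred on housekeeping genes. A rise of the size of that of Pou2af1 lies outside this interval.

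Tnfsf13b, the BAFF gene, which myeloid and stromal cells are known to express, went opposite ways in different pairs. Its values were 8.40, 8.36, 9.00 and 8.91 in the wild types and 8.70, 8.73, 8.19 and 8.39 in the knockouts. In pairs 1 and 2 the knockout was higher by 0.30 and 0.37, and in pairs 3 and 4 it was lower by 0.81 and 0.52. The mean of -0.17 ± 0.590 (SD, n = 4 pairs) did not pass the test (95% confidence interval -0.67 to 0.34, limma adjusted p = 0.648). Without pair 3 the mean was 0.05, and the medians of 15 myeloid markers were 0.36, 0.14, -0.04 and -0.23 in pairs 1 to 4, whose part in this was not tested.

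Pigr was among the strongest signals on the arrays, whose highest values lay between 14.34 and 14.51. Its log2 values were 13.42, 13.38, 13.60 and 13.58 in the wild types and 13.84, 13.89, 13.73 and 13.78 in the knockouts of pairs 1 to 4. Every knockout exceeded every wild type, by little in pairs 3 and 4 and by more in pairs 1 and 2. The differences of 0.42, 0.51, 0.13 and 0.20 averaged 0.31 ± 0.179 (SD, n = 4 pairs), a 1.24-fold difference that did not pass the adjusted threshold (95% confidence interval 0.10 to 0.53, limma adjusted p = 0.0857). It passed with variance trend and robust moderation (limma adjusted p = 0.0327). It also passed without the block (limma adjusted p = 0.00597), but that fit treats siblings as independent and called 34.4% of all probe sets. With nearly equal pair averages its p-values are too small. Pigr differed by 0.14 after centring on housekeeping genes (limma adjusted p = 0.234). With the adipose mean in the fit the difference was 0.16 (0.362), on pairs 3 and 4 alone 0.16 (0.386) and with the acinar mean 0.46 (0.050). The 13 epithelial markers had medians of -0.02, -0.14, -0.16 and -0.08 in pairs 1 to 4, with 6, 5, 6 and 6 of them higher in the knockout. The difference between Pigr and these markers was not tested.

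The same contrast was read in lists of related genes, chosen with earlier results of these data known. Counts of called genes stand beside 3.16% higher and 2.70% lower over all probe sets. Of 30 other B cell genes 27 were measured: 2 rose, 0 fell and 25 did not pass the test (median 0.18). The 9 housekeeping genes measured had a median of 0.20, with 1 called higher, and the medians of the plasma cell and germinal centre genes were 0.18 and 0.20. Medians of this size are thus not particular to B-lineage genes. Blnk, the adaptor that links the B cell receptor to its downstream enzymes, rose by 1.04 ± 0.339 (SD, n = 4 pairs, limma adjusted p = 0.0152), with 0.96, 1.42, 0.62 and 1.17 in pairs 1 to 4. Plcg2, the phospholipase that acts next to it, rose by 0.34 ± 0.0877 (limma adjusted p = 0.0465). Dropping pair 1, 2, 3 or 4 left 0, 0, 1 and 0 limma calls among the 27 (6, 6, 11 and 13 at unadjusted p under 0.05, beside 19.8% to 23.2% of all probe sets), 0 on pairs 3 and 4 alone (5 at unadjusted p under 0.05), and Plcg2 lost its call under each of 3 other scalings (adjusted p from 0.0529 to 0.164). By pair, its median was 0.30, 0.29, 0.09 and -0.03, and 24, 20, 19 and 12 of its genes were higher in the knockout. Epithelial cells and myeloid cells are known to express some of these genes, so the list does not measure B cells alone.

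Of 9 germinal centre genes measured, limma called 0 at the adjusted threshold and 3 at unadjusted p under 0.05, which 27.5% of all probe sets also reached. The nuclear GTPase gene Nuggc differed by 0.67 ± 0.436 (SD, n = 4 pairs, limma adjusted p = 0.0601), which passed the test without pair 4, and the IL-21 receptor gene Il21r differed by 0.30 ± 0.231 (adjusted p = 0.124). Both averaged below the olfactory receptor level of 5.65 in each group.

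Among 20 plasma cell genes measured limma called 0 at the adjusted threshold. At unadjusted p under 0.05, where 27.5% of all probe sets lay, 7 were higher and 2 lower, the latter being Ell2 (-0.27, limma adjusted p = 0.0732), an elongation factor of antibody-secreting cells, and Edem1 (-0.23, 0.114), which directs misfolded proteins to degradation. The chaperone gene Mzb1, typical of antibody-secreting cells, differed by 1.18, 0.82, 0.11 and 0.05 in pairs 1 to 4 (mean 0.54 ± 0.552, n = 4 pairs, limma adjusted p = 0.142). Ssr4, a subunit of the translocon-associated complex, differed by 0.37 ± 0.144 (adjusted p = 0.0509). Jchain, which encodes the J chain and was singled out after its values were seen, differed by 0.32, 0.42, -0.07 and -0.05 (limma adjusted p = 0.392). The list's medians of 0.35, 0.24, 0.00 and 0.06 were again larger in pairs 1 and 2. It includes genes of general protein handling such as Ssr4 and Edem1, so it does not measure plasma cells alone. Of 13 immunoglobulin genes looked for, 1 was measured, the surrogate light chain gene Igll1 (-0.05 ± 0.131, limma adjusted p = 0.721), and the heavy and light chain constant genes were not analysed here.

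**Figure D3:**
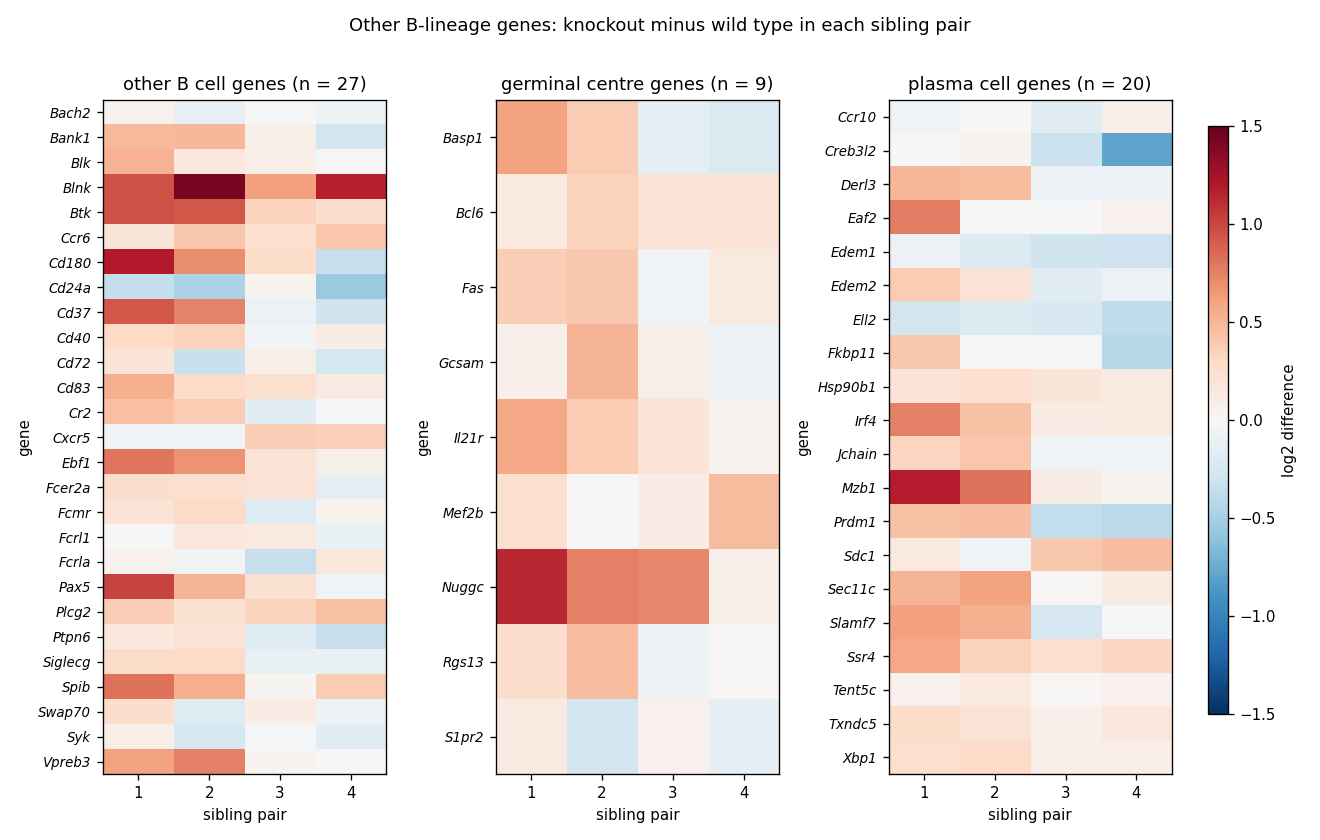
Log2 difference between knockout and wild type (colour) in sibling pairs 1 to 4 (columns) for 27 other B cell, 9 germinal centre and 20 plasma cell genes (rows, in alphabetical order). Blnk is higher in all 4 pairs, whereas Mzb1 differs mainly in pairs 1 and 2.

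Genes of the BAFF and APRIL pathway, 9 of 12 of which were measured, had 2 higher and 1 lower. Birc3, a ubiquitin ligase of TNF receptor complexes, rose by 0.78 ± 0.0858 (SD, n = 4 pairs, limma adjusted p = 0.00652), and Nfkb2, whose product p100 is processed after BAFF binds its receptor, rose by 0.59 ± 0.256 (adjusted p = 0.0337). Mcl1, which encodes a survival protein of plasma cells and other cells, fell by 0.32 on the log2 scale (limma adjusted p = 0.0473). All 3 are expressed in many cell types including epithelium. Without pair 1, 2, 3 or 4 the higher calls numbered 1, 1, 2 and 1 and the lower calls 0. Tnfrsf13b, the gene of the third receptor of the family, TACI, was named after its value was seen and differed by 0.15 ± 0.0858 (limma adjusted p = 0.227).

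Of 20 genes of IgA induction and homing 4 were higher and 0 lower, beside 3.16% and 2.70% of all probe sets. At unadjusted p under 0.05 by limma 10 were higher and 1 lower, where 27.5% of all probe sets lay. The lower was Aldh1a1, named after its value was seen (-0.63, limma adjusted p = 0.162). In which cells these genes differed was not tested. The rises of Ccl20, a chemokine that draws cells with the receptor CCR6 to follicles (2.60 ± 0.413, limma adjusted p = 0.00183), and of the nitric oxide synthase gene Nos2 (2.55 ± 0.989, adjusted p = 0.0167) were the largest. Ccl28, the mucosal chemokine that attracts IgA plasma cells through CCR10, rose by 0.58, 0.80, 0.30 and 0.77 in pairs 1 to 4 (mean 0.61 ± 0.230, limma adjusted p = 0.0271). The TGF-β receptor gene Tgfbr2, whose pathway drives the switch to IgA, rose by 0.51, 0.58, 0.35 and 0.61 (mean 0.51 ± 0.116, limma adjusted p = 0.0218). Without pair 1, 2, 3 or 4 limma called 2, 2, 4 and 2 of the 20. After housekeeping centring 4 rose and 4 fell, in a setting that called 482 of 22206 probe sets higher and 5616 lower. Of Ccl20, Nos2, Ccl28 and Tgfbr2, Nos2 alone differed less in both of pairs 1 and 2 (1.82 and 1.62) than in pairs 3 and 4 (3.12 and 3.65).

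Among 14 measured regulators of Pigr 3 rose and 0 fell (median 0.25). These were the cytokine genes Tnf (2.97 ± 0.385, limma adjusted p = 0.00114) and Il1b (0.67 ± 0.338, adjusted p = 0.0399) and the NF-κB subunit gene Rela (0.37 ± 0.0592, adjusted p = 0.0343). The wild types averaged below 5.65 for Tnf (5.58) and Il1b (5.20), where differences are understated. Limma called 1, 1, 1 and 2 of the 14 on dropping pair 1, 2, 3 or 4. After housekeeping centring 2 rose and 1 fell, as 482 and 5616 of 22206 probe sets did. In the list of 10 lymphoid stroma genes 2 were higher in the full set and on leaving out any 1 pair: Mfge8, a bridging protein of dying cells made by follicular dendritic cells and others (1.02 ± 0.153, limma adjusted p = 0.00444), and Chst4, a sulfotransferase of lymph node venules (1.0 ± 0.259, adjusted p = 0.0107). The venule genes Glycam1, Fut7 and Ccl21a of this list were not called. Cxcl13, the chemokine of B cell follicles, named after its values were seen, differed by 1.07, 0.93, 0.26 and -0.10 in pairs 1 to 4 (limma adjusted p = 0.143), also larger in pairs 1 and 2.

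Markers of other cell types were read beside these. Of 13 T cell markers 1 was higher, the coreceptor gene Cd4 (0.39 ± 0.134, SD, n = 4 pairs, limma adjusted p = 0.0427), and by pair the median was 0.09, -0.11, -0.04 and -0.25. Genes of the T cell receptor complex, named after their values were seen, were lower on average without passing the test. Cd3g differed by -0.39, -0.36, -0.38 and -1.10 (mean -0.56, limma adjusted p = 0.0648), Cd3e by -0.30 (0.173) and Cd3d, though higher in pair 1 (0.18), by -0.26 (0.260). The coreceptor gene Cd8a differed by 0.22, -0.11, -0.35 and -1.12 (mean -0.34, limma adjusted p = 0.325), most in pair 4. Cd2 (0.11), Thy1 (0.11) and Lat (0.10) were higher on average and not called. After housekeeping centring 0 of the 13 were higher and 4 lower, in a setting that called 482 of 22206 probe sets higher and 5616 lower. The mean level of the T cell list ran from 7.20 to 7.35 in the wild types and from 7.05 to 7.24 in the knockouts. Flt3, a receptor of dendritic cells and their precursors (0.39 ± 0.131, limma adjusted p = 0.0439), was the 1 called of 15 myeloid markers, though it averaged below 5.65 in both groups (5.08 in the wild types and 5.47 in the knockouts), and the mean level of that list ran from 7.06 to 7.33 in the wild types and from 7.10 to 7.40 in the knockouts. With any 1 pair dropped, limma called 0 of either list, with 2 to 4 of the T cell and 1 to 4 of the myeloid markers at unadjusted p under 0.05. Of 10 M cell markers 3 were higher, Pglyrp1 (1.65 ± 0.315, limma adjusted p = 0.00355), Tnfaip2 (1.04 ± 0.439, 0.0234) and the RANK gene Tnfrsf11a (0.48 ± 0.214, 0.0427), and 1, 1, 2 and 1 were called higher without pair 1, 2, 3 or 4. Gp2, the M cell receptor that acinar cells also express, differed by -0.14, -0.02, -3.24 and -3.10, as the acinar markers did. Of the 13 epithelial markers the transcription factor genes Elf3 (0.54 ± 0.111, limma adjusted p = 0.0195) and Cdx1 (0.44 ± 0.128, 0.0332) were higher, and dropping pair 1, 2, 3 or 4 left 0, 0, 1 and 0 limma calls (4, 6, 4 and 4 at unadjusted p under 0.05). In 5 of the 13, Vil1, Krt20, Epcam, Cldn7 and Cdh1, every knockout was lower than its sibling, with none called (Vil1, the villin gene, -0.34, limma adjusted p = 0.0512). In 4 of the 13, Krt19, Lgals4, Elf3 and Cdx1, every knockout was higher, so the list had no common direction. With arrays centred on housekeeping genes, 1 of the 13 was higher and 6 were lower, beside the 5616 of 22206 probe sets called lower there.

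**Figure D4:**
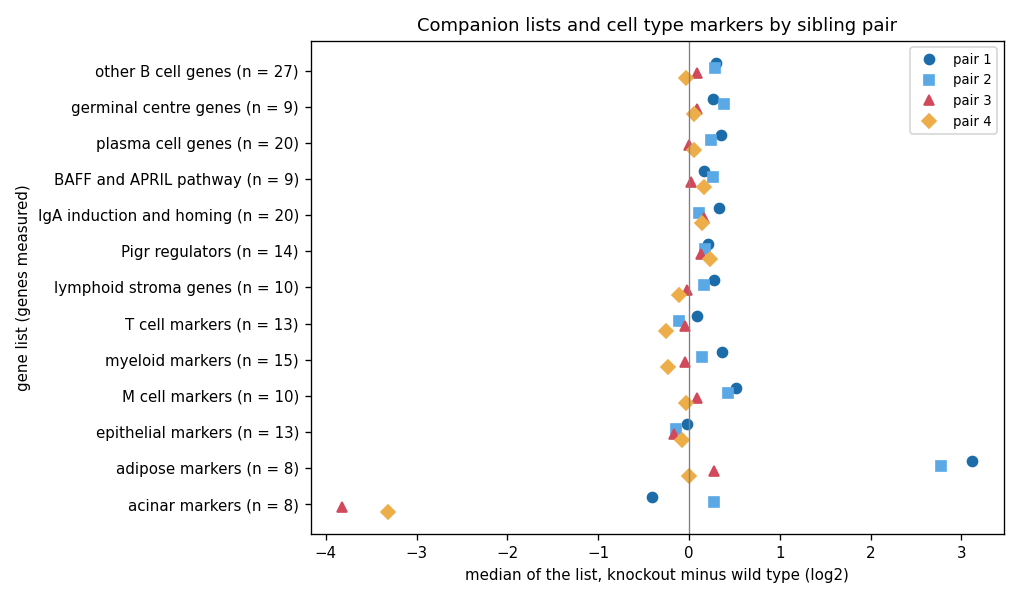
Median log2 difference between knockout and wild type of each gene list in sibling pairs 1 to 4. The adipose list stands apart in pairs 1 and 2 and the acinar list in pairs 3 and 4, while the B cell and plasma cell lists lie between -0.03 and 0.35.

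Genes whose 4 within-pair differences were nearest to those of a member were found by Euclidean distance among 18465 named genes, as a description over 4 pairs. Nearest to the mean of the 5 surface genes were Trarg1, Sp140, Hcar1, Mettl22 and Ap1s3 (distances 0.172 to 0.279). Trarg1, a regulator of glucose transporter traffic, differed by 1.04, 0.88, 0.05 and 0.20, the immune nuclear body gene Sp140 by 1.14, 0.67, -0.05 and 0.13, and Hcar1 by 0.93, 0.85, 0.11 and 0.39. The adipose markers also differed mainly in pairs 1 and 2 (medians 3.12, 2.77, 0.27 and 0.00), and their part in this likeness was not tested. Nearest to Pou2af1 were Alg8, Adm, Fzd7, Dmbt1 and Slfn4 (0.113 to 0.235), and the differences of Dmbt1, an epithelial scavenger receptor secreted into the gut, were 0.95, 1.13, 0.74 and 0.84. Pik3r5, Apln, Plac8, Hmgn5 and Degs1 were nearest to Pigr (0.0539 to 0.0755), with Plac8 at 0.40, 0.45, 0.14 and 0.20. Rab39b, Kif24, Rnf166, Chst15 and Prkg2 were nearest to Tnfrsf17 (0.0648 to 0.124), and Tmem37, Bend5, Sulf1, Eid1 and Trim47 to Tnfsf13b (0.203 to 0.291).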

How the data were processed

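RNA of 8 mice was hybridised to Clariom S arrays. The authors deposited 1 log2 value per probe set and array, made with RMA and the Transcriptome Analysis Console 4.0 per the submitters' processing notes, which state no settings. The 9 genes, the gene lists, the fit and the rule for naming genes were chosen with earlier results of these data known. The named genes are the 9 members, Nfkbia, up to 4 called genes of each list with the largest difference (with none called, the 2 with the largest), and the 5 nearest genes by distance. Probe sets were named through the platform table (19572 of 22206 with 1 symbol, 2634 unnamed here), and the RefSeq table (GRCm38.p6) held each of the 19572 gene IDs. The probe set with the highest mean stood for a gene.

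Differences were fitted with limma 3.58.1 in R 4.3.3 (lmFit, eBayes) with genotype and sibling pair, since the series design pairs littermates and the labels number the pairs. P-values are two-sided and adjusted by Benjamini-Hochberg over 22206 probe sets. As a check of the pairing, siblings were compared after subtracting group means: their correlations over probe sets lay from -0.913 to -0.870, as most differences between pairs are absent from the deposited values. Differences correlated at 0.682 between pairs 1 and 2, 0.673 between pairs 3 and 4 and 0.346 to 0.420 across, and the fit takes them as independent, so its p-values may be too small. With 8 arrays the precision is limited, with 3 residual degrees of freedom before and 6.63 after moderation. Values after ± are SDs of the 4 within-pair differences. The fit was tested on simulated data in which the differences of the 4 pairs were drawn independently. It therefore cannot show how the correlation between pairs affects the p-values. In all, 18 other settings were tried, of which 3 were added after the data were seen.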

Additional observations from a re-analysis of the deposited data

How the results depend on the processing

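The 3 called genes kept their direction in every setting. Settings that only drop pairs, drop the block or move the threshold could not change it, as every knockout was higher than its sibling. Pou2af1 was called in 14 of 18 other settings, Tnfrsf13c in 10 and Cd22 in 7. These tallies do not measure stability. An adjusted threshold of 0.1 on the same fit passes each called gene by construction. The fit without the replicate block calls 34.4% of all probe sets, and fits on pairs 1 and 2 or 3 and 4 alone call few. Leaving out 1 pair at a time gave 0 to 2 called members (4 at unadjusted p under 0.05 by limma without pair 1 or 2, where 21.8% and 19.8% of all probe sets lay there), 7 to 13 of 176 genes of the lists (21 in the full set) and 145 to 459 of all probe sets (1301 in the full set). Without the replicate block the counts were 5 members, with Cd79b and Pigr added, 83 list genes and 7648 probe sets. That fit treats siblings as independent, and with nearly equal pair averages its p-values are too small. With sex in the fit the counts were 1, 13 and 464, and with RNA integrity 1, 9 and 364. The adipose covariate, which largely re-estimates pairs 3 and 4, left 1 member, Pou2af1. The acinar covariate, which largely re-estimates pairs 1 and 2, gave 5. With the T cell mean 12 list genes and 496 probe sets were called. Centring on housekeeping genes gave 45 list genes (19 higher, 26 lower) and 6098 probe sets (482 higher, 5616 lower). It shifted the overall median of -0.02 to -0.19 and those of the other B cell and plasma cell lists to 0.00 and 0.01. Trend and robust variance gave 1997 probe sets, and an adjusted threshold of 0.1 gave 40 list genes and 3304 probe sets. On pairs 3 and 4 alone limma called 0 members (4 at unadjusted p under 0.05, as were 18.7% of all probe sets), 6 list genes and 26 probe sets, and on pairs 1 and 2 alone 0, 0 and 0 (8, 79 and 5278 at unadjusted p under 0.05). The cause of these changes was not tested, except that fewer pairs leave fewer degrees of freedom. Each of the 9 genes has 1 probe set, so the planned comparison with other probe sets was not run.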
